A study of Mus musculus with 31 samples.

Results

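Astrocyte-class peaks are the 1236 of 96670 open chromatin regions of the uninjured mouse spinal cord that were read mainly in cells of the deposited classes ACNT1 and ACNT2. They were chosen by their level: cut sites of a single-cell ATAC sample were summed over ACNT cells, ependymal cells (EP1, EP2 and EP3), OPC cells and vascular cells (VEC and PER), and each sum was scaled to CPM by its total (1 cut site of the ACNT sum was worth 0.295 CPM). A member had at least 10 CPM in the ACNT sum and at least 4 times the level of each of the other sums. The same rule gave 2953 peaks for the ependymal, 1717 for the OPC and 1741 for the vascular classes.

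The study deposited 31 samples from spinal cord of the C57BL/6 background. The chromatin data were 1 sample of non-neuronal cells without injury, with 1084 cells: 173 ACNT (111 ACNT1 and 62 ACNT2), 754 EP, 67 OPC and 90 vascular. For bulk RNA, ependymal cells were sorted and read by Smart-seq2 in 12 libraries, 2 each for Foxj1-Olig2-tdT mice at 1 dpi, at 5 dpi and without injury, and for Foxj1-tdT mice at the same stages, where dpi was read as days after injury. Both genotype names hold Foxj1, an ependymal gene, and tdT, read as the fluorescent protein tdTomato, and Foxj1-Olig2-tdT also holds Olig2, a regulator of oligodendrocyte fate. How the alleles act, and whether replicates were separate animals, is not given in the sources used here, so p-values measure only the spread between libraries, which may be technical.

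Astrocytes clear glutamate, GABA and glycine from around synapses, couple through gap junctions and buffer potassium and bicarbonate. ATAC-seq reads where a transposase can cut, so a peak marks DNA that is open in at least some of the cells, at promoters and at distal regulatory elements. Ependymal cells line the central canal with motile cilia, and after spinal cord injury some of their progeny are known to become astrocytes of the scar.

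The highest member of the 1236 lay at the Gm3764 gene, a long non-coding RNA that holds the hairpin Mir9-1 (chr3:88215598-88215686, plus strand). miR-9 is a microRNA of neural progenitors and glia. Its 2 mature arms are shown because more members lay within 20 kb of this hairpin (4), and of Mir3093 and Gm25641 beside and over it, than of any other annotated hairpin. Capitals mark the seed, bases 2 to 8. The sequences are from RefSeq on GRCm38.p6.
mmu-miR-9-5p: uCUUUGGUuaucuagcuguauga
mmu-miR-9-3p: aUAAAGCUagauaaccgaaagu

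The peak chr3:88228864-88233719, over the distal end of Gm3764, had 413.7 CPM in ACNT cells, against 86.2 CPM in EP, 79.9 CPM in OPC and 1.43 CPM in vascular cells. The second highest member, chr3:88205247-88208610 over the other end, had 249.1 CPM in ACNT cells, against 3.01 CPM in EP, 57.8 CPM in OPC and 2.14 CPM in vascular cells. Both ends were highest in ACNT cells, as the rule demands, but the first was also open in ependymal cells and both were open in OPC cells. The smaller members chr3:88209220-88210242 and chr3:88212036-88212672 had 32.2 and 19.8 CPM in ACNT cells, and the second of these lay 2926 bp from Mir9-1. The peak over the hairpin itself, chr3:88213821-88217869, had 177.3 CPM in ACNT cells against 55.9 CPM in OPC cells, 3.17 times the OPC level, and so was no member. Nor was chr3:88219875-88223134, also over Gm3764, with 131.2 CPM in ACNT cells against 85.8 CPM in OPC cells, 1.53 times the OPC level. A bulk RNA value of Gm3764 was not used here.

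**Figure D1:**
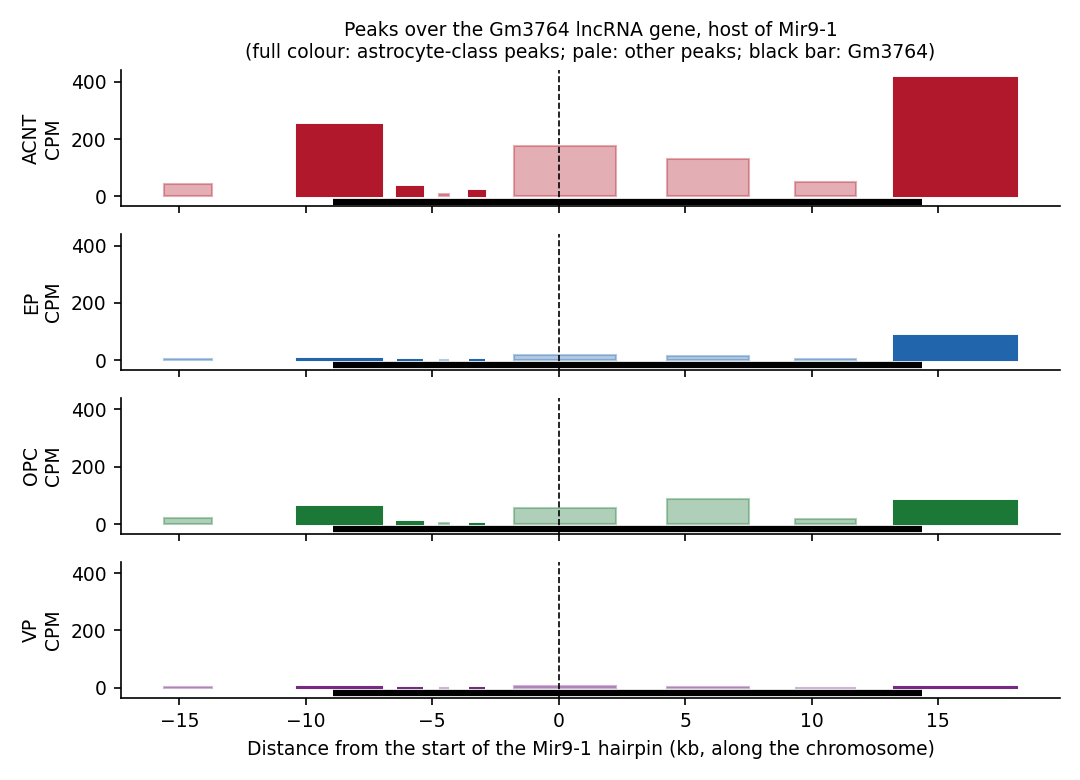
CPM of each peak (height) over and beside Gm3764 in the ACNT, EP, OPC and VP (vascular) sums, against the distance in kb from the start of the Mir9-1 hairpin (dashed line). The 4 full-coloured peaks are members; the highest has 413.7 CPM in ACNT cells, and the 177.3 CPM peak at the hairpin is pale because its OPC level is 55.9 CPM.

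Promoters shown next lie inside members at genes of known astrocyte function. Of each, the 250 bases before the start of the gene are given; Slc7a10 is shown as the member promoter of highest level, and Paqr6, Gfap and Aldh1l1 as the 3 highest promoters of listed genes that hold either of 2 motifs. Capitals mark AGGTCA, a core motif of ROR and other nuclear receptors, and TTGGCA, a core motif of NFI factors, on either strand; these 2 motifs share no overlapping hit in the sequences shown. The sequences are from RefSeq on GRCm38.p6: Slc7a10 at chr7:35186135-35186384 (plus strand), Paqr6 at chr3:88364339-88364588 (plus strand), Gfap at chr11:102897201-102897450 (minus strand) and Aldh1l1 at chr6:90550543-90550792 (plus strand).
Slc7a10: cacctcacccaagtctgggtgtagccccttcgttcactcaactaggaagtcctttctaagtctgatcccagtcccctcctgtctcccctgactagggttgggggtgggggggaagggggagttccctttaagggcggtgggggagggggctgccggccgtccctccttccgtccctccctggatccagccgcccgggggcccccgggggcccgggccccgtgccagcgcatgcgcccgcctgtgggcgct
Paqr6: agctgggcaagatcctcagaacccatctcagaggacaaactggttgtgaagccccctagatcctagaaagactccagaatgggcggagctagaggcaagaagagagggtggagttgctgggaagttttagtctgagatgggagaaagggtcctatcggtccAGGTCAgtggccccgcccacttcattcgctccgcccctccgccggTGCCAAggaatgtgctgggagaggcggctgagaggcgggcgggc
Gfap: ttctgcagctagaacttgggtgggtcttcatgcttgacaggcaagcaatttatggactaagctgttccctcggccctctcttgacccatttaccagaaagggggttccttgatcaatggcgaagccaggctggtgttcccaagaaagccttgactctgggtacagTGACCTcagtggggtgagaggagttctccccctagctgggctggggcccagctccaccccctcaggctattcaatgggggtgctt
Aldh1l1: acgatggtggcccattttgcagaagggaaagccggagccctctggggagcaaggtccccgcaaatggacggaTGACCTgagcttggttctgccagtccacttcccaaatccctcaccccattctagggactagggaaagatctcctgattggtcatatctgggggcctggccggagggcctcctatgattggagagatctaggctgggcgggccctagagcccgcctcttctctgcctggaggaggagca

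The promoter windows of RefSeq's table (250 bases before to 50 after a start, build GRCm38.p6) lay whole inside a member for 31 promoters of 29 genes. AGGTCA was found on either strand in 10 of the 31 (32.3%), against 10.7% of the promoters inside all peaks and 14.7% of all protein-coding promoters. TTGGCA was found in 6 (19.4%), against 10.8% and 13.1%. The SOX core ACAAT was found in 3 (9.68%), against 18.4% and 27.7%, and the RFX core GTTGCC in 4 (12.9%), against 13.5% and 12.6%. TAATTA was found in none of the 31, against 2.02% of the promoters inside all peaks, and the NFI palindrome in none, against 0.0327%. Member promoters had a median of 5 CpG sites and a GC content of 59%, against 22 CpG sites and 62.3% for promoters inside all peaks. The 105 promoters inside ependymal-class peaks held AGGTCA in 20%, TTGGCA in 21.9%, ACAAT in 23.8%, GTTGCC in 38.1%, TAATTA in 3.81% and the palindrome in none. These are counts of letters in 31 and 105 windows, without a test.

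Levels of the members spread over more than a log10 unit. The ACNT level ran between 10.0 and 413.7 CPM, with quartiles of 13.3, 19.8 and 34.3 CPM, and 168 members had at least 50 CPM, 32 at least 100 and 3 at least 200. A member's ACNT level rested on 34 to 1400 cut sites, with a median of 67. In the other sums the median member had 1.25 CPM in EP, 1.57 CPM in OPC and 0 CPM in vascular cells, where 1 cut site was worth 0.715 CPM. The 3 members nearest the threshold had 4.002, 4.005 and 4.005 times the level of the next sum, the third in Igdcc4 and the second in Eea1. The 3 peaks just outside it, near Dbx2 and in Prkg1 and Syndig1, had 3.998, 3.997 and 3.996 times.

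The members were not closed elsewhere. Only 9 had no cut site in all 3 of the other sums, while 43 had none in EP, 194 none in OPC and 695 none in vascular cells; 54 had at least 10 CPM in EP, 67 in OPC and 19 in vascular cells. The next highest sum was OPC for 572 members, EP for 474 and vascular for 190. The name "astrocyte-class peak" therefore means a level at least 4 times higher, not a region open in astrocytes alone. A count of 0 cut sites allows up to 0.121 CPM in EP, 1.18 CPM in OPC and 2.14 CPM in vascular cells (3 cut sites, counting error only).

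**Figure D2:**
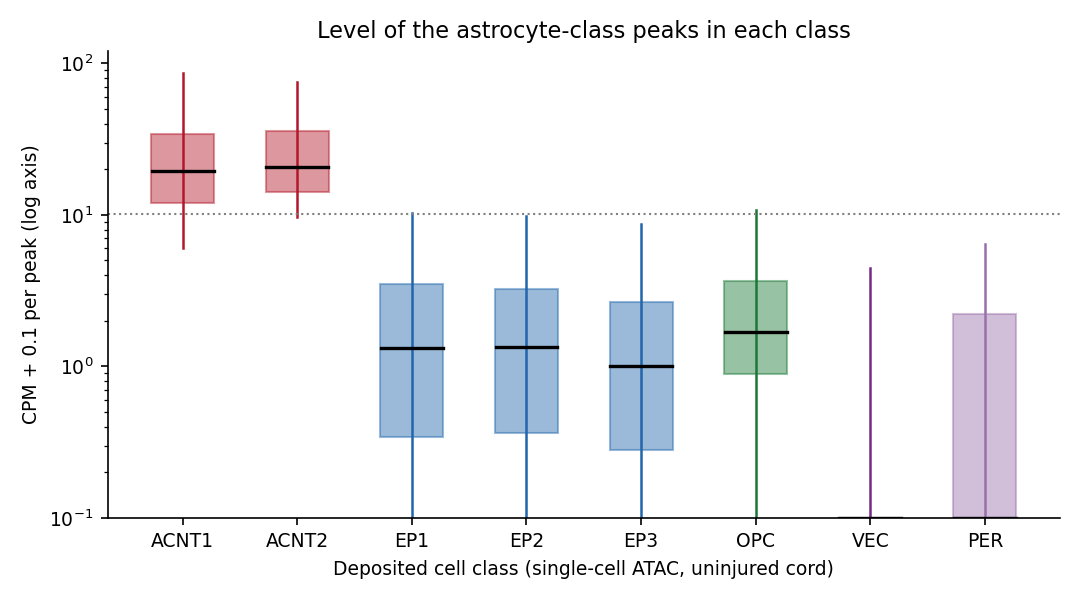
CPM + 0.1 of the 1236 members (log axis) in each deposited class; boxes span the quartiles, black bars are medians, lines the 5th to 95th percentiles, and the dotted line is the 10 CPM threshold. ACNT1 and ACNT2 stand above the other 6 classes, as the rule demands, and the VEC and PER medians are at 0 CPM.

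ACNT1 and ACNT2 held the members at similar levels. Of the 1236, 1048 differed by less than 2 times between the 2 classes, 143 were at least 2 times higher in ACNT2 and 45 at least 2 times higher in ACNT1. The median log2 ratio of ACNT2 to ACNT1 was 0.09, against 0.10 over the 21729 peaks with at least 10 CPM in ACNT. With ACNT1 cells alone the rule gave 1265 peaks, of which 947 were members, and with ACNT2 cells alone 1322, of which 1108 were members. ACNT1 cells were shallower, with a median of 10278 cut sites per cell against 34498.5 in ACNT2.

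Single cells showed the same contrast that chose the peaks. Members took 3.61% of all ACNT cut sites, against 0.313% in EP, 0.364% in OPC and 0.152% in vascular cells. Per cell the share ran between 1.39% and 5.52% in the 173 ACNT cells, with a median of 3.73%, and the highest share in any other cell was 1.81%. Of the ACNT cells, 171 stood above every other cell. Because the cells were also the cells that chose the peaks, this is a description.

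The deposited class name was checked against marker genes. Peaks within 2 kb of 12 astrocyte marker genes summed to 2187 CPM in ACNT, against 974 CPM in EP, 696 CPM in OPC and 361 CPM in vascular cells. Of these 80 peaks, 13 were members, chosen for their higher ACNT level, so part of this contrast follows from the rule. Ependymal markers had 505 CPM in ACNT and 1164 CPM in EP, OPC markers 871 CPM in ACNT and 1486 CPM in OPC, and endothelial markers 86.6 CPM in ACNT and 515 CPM in vascular cells. The OPC markers did not all follow their sum: peaks at Olig2 had 243 and 210 CPM in ACNT1 and ACNT2 against 119 CPM in OPC, those at Olig1 156 and 103 CPM against 46.8 CPM, and those at Ptprz1, which encodes a receptor phosphatase, 82.0 and 95.4 CPM against 58.6 CPM. Not each astrocyte marker was highest in ACNT. Peaks at Slc1a3, the glutamate transporter GLAST, had 115 and 116 CPM in ACNT1 and ACNT2 but 176, 157 and 138 CPM in EP1, EP2 and EP3. Those at Mlc1 had 37.2 and 48.6 CPM in ACNT1 and ACNT2 against 121, 134 and 131 CPM in the EP classes. Gja1 had 46.5 and 76.3 CPM in ACNT1 and ACNT2, against 75.8 to 80.6 CPM in the EP classes and 118 CPM in VEC. Hepacam had 62.6 and 102 CPM, against 60.1 to 70.9 CPM in the EP classes and 89.8 CPM in VEC. Aqp4 had 134 and 119 CPM, against 95.1 to 131 CPM in the EP classes. Only Aldh1l1, Aldoc, Slc1a2, Gjb6, Slc6a11, Fgfr3 and Acsbg1 were higher in both ACNT classes than in every other class.

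Most members lay away from gene starts. Within 2 kb of a protein-coding start, or of either end of a gene without a start in RefSeq's promoter table, lay 77 members (6.23%, exact 95% Clopper-Pearson interval 4.95 to 7.72), against 17.3% of all peaks. Gene bodies held 643 (52.0%), the 50 kb around genes a further 276 (22.3%), and 240 (19.4%) lay more than 50 kb from a protein-coding gene, against 46.3%, 21.7% and 14.6% of all peaks. Ependymal-class peaks had nearly the same promoter share, 7.11%, while OPC-class peaks had 19.1%. Among peaks with at least 10 CPM in ACNT, whatever their level elsewhere, 48.7% were at promoters. The intervals cover counting error only.

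**Figure D3:**
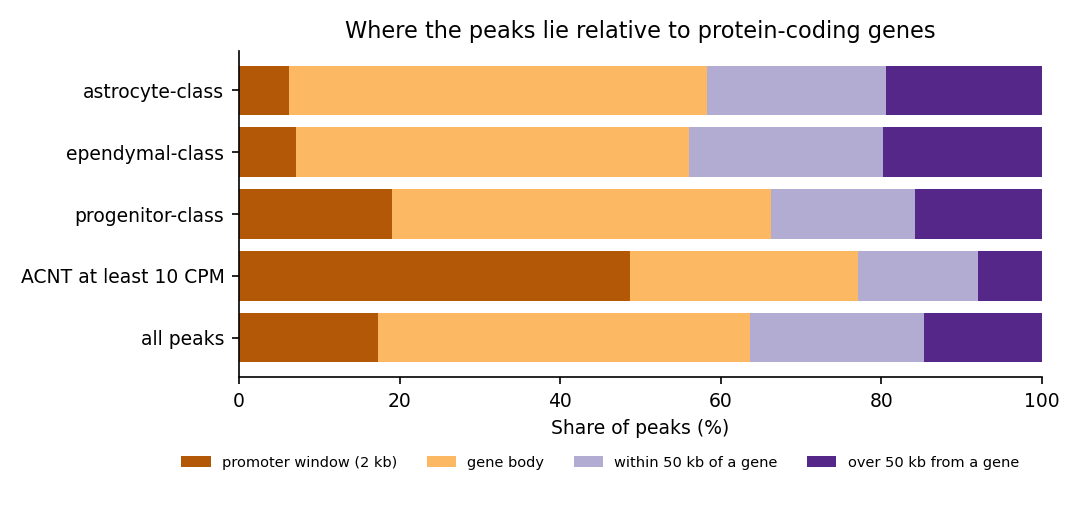
Share of peaks (%) in each location, for members, for peaks chosen by the same rule in ependymal and OPC (progenitor) cells, for peaks with at least 10 CPM in ACNT, and for all peaks. The promoter share is 6.23% of members and 48.7% of peaks with at least 10 CPM in ACNT.

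The median member was 664 bp wide, against 587 bp over all peaks, and its centre lay a median of 34085 bp from the nearest start, against 24794 bp. A long non-coding RNA gene overlapped 136 members (11.0%), against 13.1% of all peaks. Members were found on 20 chromosomes, at 1.84% of the peaks of chromosome 12 and 0.756% of those of chromosome X. The highest of the members more than 50 kb from a protein-coding gene, chr12:25239800-25241300, had 149 CPM in ACNT cells, against 2.53 CPM in EP, 6.30 CPM in OPC and 1.43 CPM in vascular cells. Its nearest start, at 144458 bp, was that of Id2, a transcription regulator downstream of BMP signalling.

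A member was assigned to the protein-coding gene that it overlapped, or otherwise to the nearest one within 50 kb. In this way 996 members were assigned to 803 genes, of which 662 had 1 member, 141 at least 2 and 14 at least 4. Trpm3, a cation channel gene, had the most, with 8. Kirrel3, a cell adhesion gene, had 6, and Igsf21 and Ntm had 5 each. Those with 4 were Slc7a10, Plcb1, Lsamp, Atp13a4, Ank2 and Cpe among the 10 highest. Of the 803 genes, 150 also had an ependymal-class peak (18.7% of these genes and 8.43% of the genes near ependymal-class peaks), and 102 an OPC-class peak (12.7% and 8.67%).

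Transporters and metabolic genes of astrocytes were found often among these genes. Of 64 genes in a list of astrocyte membrane and metabolic genes, 28 (43.8%) had a member, against 3.67% of 21900 protein-coding genes; 7 of the 64 (10.9%) had an ependymal-class peak, against 8.13% of all, and 1 (1.56%) an OPC-class peak, against 5.37%. The promoter peak of Slc7a10, a transporter of small neutral amino acids, had 219 CPM in ACNT cells, against 5.95 CPM in EP, 20.1 CPM in OPC and 4.29 CPM in vascular cells. The promoter peak of Slc6a9, the glycine transporter GlyT1, had 178 CPM in ACNT cells, against 9.44 CPM in EP, 32.7 CPM in OPC and 14.3 CPM in vascular cells. Both promoters were among the 5 highest members.

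Further members of this list lay inside genes. The body of Fgfr3, a growth factor receptor, held 1 with 113 CPM in ACNT cells, against 7.35 CPM in EP, 8.26 CPM in OPC and 0 CPM in vascular cells. Slc6a11, the GABA transporter GAT-3, held 3, with 72.7, 67.4 and 62.6 CPM in ACNT cells, against 12.7, 3.38 and 0.402 CPM in EP cells. Slc1a2, the glutamate transporter GLT-1, held 3 lower ones, with 26.0, 23.0 and 22.5 CPM in ACNT cells, against 0.764, 0 and 4.22 CPM in EP cells. The promoter of Aldh1l1, a folate enzyme used as an astrocyte marker, had 76.8 CPM in ACNT cells, against 4.18 CPM in EP, 4.33 CPM in OPC and 12.9 CPM in vascular cells.

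Of 37 astrocyte transcription factors, 9 (24.3%) had a member (Dbx2, Gli2, Gli3, Id3, Lhx2, Nfia, Npas3, Nr2f1 and Rora), against 3.67% of all protein-coding genes. An ependymal-class peak was near 10 of them (27%), Sox9, Zbtb20 and Npas3 included, against 8.13% of all, and an OPC-class peak near 2 (5.41%), against 5.37%. The member near Id3 had 90.4 CPM in ACNT cells, against 1.69 CPM in EP, 15.0 CPM in OPC and 2.86 CPM in vascular cells. Inside Gli3, a factor of Hedgehog signalling, the higher of 2 members had 66.5 CPM in ACNT cells, against 8.44 CPM in EP, 2.36 CPM in OPC and 0 CPM in vascular cells. Of 38 Notch and BMP pathway genes 5 (13.2%) had a member (Acvr1, Bmp7, Id3, Notch2 and Smad9) and 7 (18.4%) an ependymal-class peak. Acvr1 and Notch2 had both. Of 38 patterning genes 1 (2.63%), Dbx2, had a member and 4 (10.5%) an ependymal-class peak.

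Of 30 genes that astrocytes raise after injury, 2 (6.67%) had a member, Gfap and Aspg, against 3.67% of all protein-coding genes. An ependymal-class peak was near 4 (13.3%), against 8.13% of all. The Gfap promoter peak had 77.1 CPM in ACNT cells, against 12.8 CPM in EP, 17.7 CPM in OPC and 1.43 CPM in vascular cells. Of the marker lists, 7 of 12 astrocyte markers (58.3%) had a member, against 3.67% of all protein-coding genes. None of 12 ependymal, 12 mature oligodendrocyte, 12 endothelial and 12 microglia markers had one, but lists of 12 are too short to tell none from 3.67%. Tnr of the OPC list, Pdgfrb of the pericyte list, Syt1 of the neuron list and Col1a1 of the fibroblast list had a member. Tnr and Syt1 also had an OPC-class peak, and Col1a1 an ependymal-class peak.

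The bulk RNA is of ependymal cells, so what follows describes how genes near astrocyte-class peaks behaved in ependymal cells after injury, not in astrocytes. In bulk samples fewer cells of a type and less RNA per cell cannot be told apart. Of the 803 genes, 685 were matched in the bulk table and 672 passed the filter, which asked for 10 or more in 2 or more libraries; 15811 genes were tested in all. Without injury these genes were not silent: 536 of 685 (78.2%) had a value of at least 10 in both Foxj1-tdT libraries, against 78.3% of all genes, and 76 (11.1%) were listed at 0 in both, against 8.96%. The 2 uninjured Foxj1-tdT libraries were far more alike (Pearson r = 0.989 across genes) than the pairs of the other groups (r between 0.864 and 0.928), and whether those 2 were prepared apart is not given in the sources used here. The normalised counts of a library added up to 12601290 at the lowest and 13878102 at the highest, and the depth in reads is unknown.

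Genes near members changed about as often as genes at large. In Foxj1-Olig2-tdT libraries at 1 dpi against uninjured ones, 65 of 672 (9.67%) passed an adjusted p of 0.05 (limma, Benjamini-Hochberg over all genes), 41 higher and 24 lower, against 8.09% of all genes tested. At 5 dpi in Foxj1-Olig2-tdT libraries 242 (36.0%) did, 126 higher and 116 lower, against 31.2%. In Foxj1-tdT libraries at 1 dpi 179 (26.6%) did, 91 higher and 88 lower, against 27.4%, and at 5 dpi 185 (27.5%), 114 higher and 71 lower, against 23%. The contrasts of 1 genotype share their uninjured libraries. The median log2 change of the 672 genes was -0.03 and 0.10 in Foxj1-Olig2-tdT at 1 and 5 dpi and -0.10 and 0.13 in Foxj1-tdT, against 0, 0.12, 0 and 0.04 over all genes.

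These counts depended on single libraries. In Foxj1-tdT, 87 genes passed at 1 dpi without the first or without the second uninjured library, and 72 and 77 at 5 dpi; with the near-identical pair entered as 1 library it was 87 and 74. Without the second Foxj1-tdT library of 5 dpi, 117 passed at 5 dpi. In Foxj1-Olig2-tdT at 1 dpi, 33 passed without either of its libraries of 1 dpi, and 42 and 41 without the first or the second uninjured Foxj1-tdT library, which enter through the shared spread. At 5 dpi, 152 passed without the second Foxj1-Olig2-tdT library of that time. In the first Foxj1-tdT library of 1 dpi, 6 fibroblast markers in the table made up 0.107% of the summed values, against 0.00217% in the second, with Pdgfra and Col3a1 at 0 in both; 11 mature oligodendrocyte markers made up 0.180% and 0.0174%. Their part in the results was not tested. Of 1594 tested genes near ependymal-class peaks, for comparison, 87 (5.46%) fell and 66 (4.14%) rose at 1 dpi in Foxj1-Olig2-tdT, against 2.16% and 5.93% of all genes. At 5 dpi 499 (31.3%) fell and 181 (11.4%) rose, against 14% and 17.2%. In Foxj1-tdT 371 (23.3%) fell and 153 (9.60%) rose at 1 dpi, against 12% and 15.4%, and 284 (17.8%) fell and 180 (11.3%) rose at 5 dpi, against 9.21% and 13.8%. These differences from all genes were not tested.

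**Figure D4:**
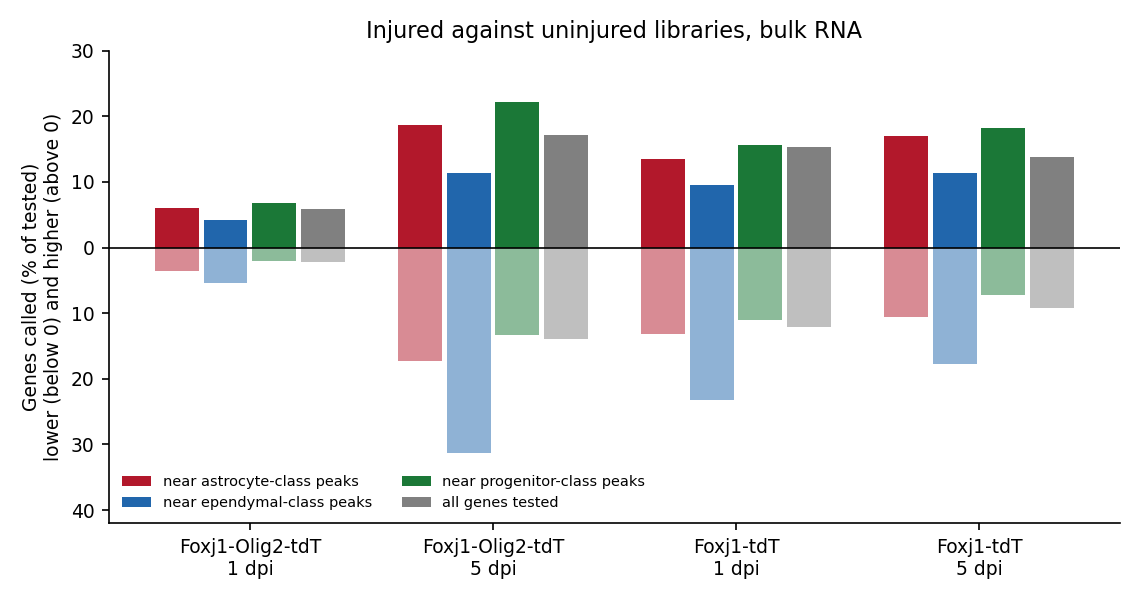
Share of tested genes (%) called higher (above 0) and lower (below 0) in injured against uninjured bulk RNA libraries, by the class of the nearby peak. Genes near astrocyte-class peaks (red) stay close to all genes (grey), with 36.0% called in Foxj1-Olig2-tdT at 5 dpi against 31.2%, while genes near ependymal-class peaks (blue) extend further below 0; green bars are genes near OPC-class (progenitor) peaks.

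Between genotypes at the same time, 47 genes were called in both at 1 dpi (72.3% of the Foxj1-Olig2-tdT calls and 26.3% of the Foxj1-tdT calls), 44 of them (93.6%) in the same direction. Over all genes tested 906 were called in both (70.8% and 20.9%), 97.2% of them in the same direction. At 5 dpi it was 107 genes near members (44.2% and 57.8%), 103 of them (96.3%) in the same direction, and over all genes tested 2081 (42.2% and 57.1%), 97.5% of them in the same direction.

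Gfap, the intermediate filament of reactive astrocytes, rose in all 4 contrasts. In Foxj1-Olig2-tdT it had 186.1 and 588.0 normalised counts without injury, 16860 and 10425 at 1 dpi, then 5895 and 1928 at 5 dpi. In Foxj1-tdT it had 959.1 and 918.6 without injury, 19838 and 17606 at 1 dpi, then 23346 and 10825 at 5 dpi. Each injured library was above each uninjured one of its genotype. The log2 fold change was 5.32 ± 0.61 and 3.34 ± 0.61 (SE) at 1 and 5 dpi in Foxj1-Olig2-tdT (limma adjusted p = 0.000661 and 0.00229) and 4.31 ± 0.61 and 4.08 ± 0.61 in Foxj1-tdT (adjusted p = 0.000769 and 0.0014). Of the whole list of reactive genes, 28 were tested and 20, 19, 22 and 20 rose in these contrasts, in that order, with none lower, against 5.93%, 17.2%, 15.4% and 13.8% of all genes higher; Gfap was the 1 tested member of the list with an astrocyte-class peak.

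Capn2, the protease calpain 2, also rose in all 4. The member in its body was the sixth highest, with 158 CPM in ACNT cells, against 0.281 CPM in EP, 19.3 CPM in OPC and 14.3 CPM in vascular cells. Its RNA had 1194 and 1045 normalised counts in uninjured Foxj1-Olig2-tdT libraries, 2815 and 3343 at 1 dpi, then 3499 and 3637 at 5 dpi, and 726.0 and 749.7 in uninjured Foxj1-tdT libraries, 2849 and 3419 at 1 dpi, then 3004 and 2277 at 5 dpi. The injured libraries lay above the uninjured ones with no overlap. In Foxj1-tdT at 1 dpi the change was 2.08 ± 0.18 on the log2 scale (limma adjusted p = 7.26e-05), and in the other 3 contrasts it lay between 1.46 and 1.82 with adjusted p of 0.00122 or below.

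Slc7a10, Fgfr3, Npas3 and Lrig1, all near members of over 100 CPM, did not pass in any of the 4 contrasts. Slc7a10 was listed at 0 in both uninjured Foxj1-tdT libraries and had at most 20.5 in the injured ones, and adjusted p values in its 4 contrasts lay between 0.571 and 0.789. Fgfr3 had 1243 and 867.9 at 5 dpi in Foxj1-Olig2-tdT, against 938.9 and 1006 without injury, and 745.4 and 390.7 at 5 dpi in Foxj1-tdT, against 543.3 and 461.5. These groups overlapped. Npas3 and Lrig1, a transcription factor and a receptor regulator with members of 148 and 194 CPM, had adjusted p values of at least 0.339 in the 4 contrasts.

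Slc6a9 fell at 5 dpi in both genotypes. It had 382.3 and 441.6 at 5 dpi in Foxj1-Olig2-tdT, against 1322 and 1406 without injury, and 236.1 and 75.1 at 5 dpi in Foxj1-tdT, against 961.5 and 890.8. The groups did not overlap. The log2 fold change was -1.73 ± 0.47 in Foxj1-Olig2-tdT (limma adjusted p = 0.0191) and -2.79 ± 0.47 in Foxj1-tdT (adjusted p = 0.00271). The call in Foxj1-Olig2-tdT was lost without any 1 of its 4 libraries, with adjusted p between 0.0590 and 0.0945.

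**Figure D5:**
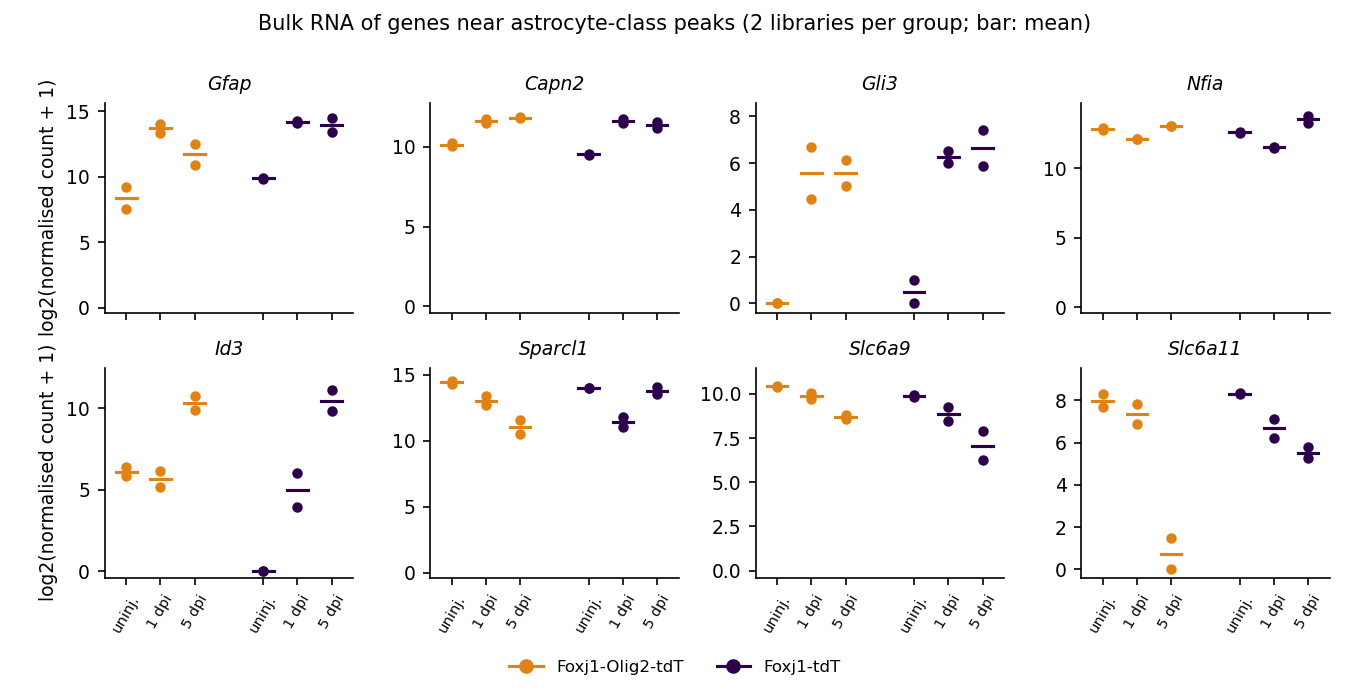
log2(normalised count + 1) of 8 genes near astrocyte-class peaks in each bulk RNA library (points) and the group means (bars), by stage, for Foxj1-Olig2-tdT (orange) and Foxj1-tdT (dark). Gfap, Capn2 and Gli3 lie higher after injury in both genotypes, and Slc6a9 and Slc6a11 lie lower at 5 dpi, with Slc6a11 at 1.8 and 0 normalised counts (before the log2) in Foxj1-Olig2-tdT.

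Several transporters and other astrocyte genes of the membrane and metabolism list fell at 5 dpi in Foxj1-Olig2-tdT. Of the 24 tested genes of the membrane and metabolism list with a member, 8 fell there (Acsl6, Cbs, Hepacam, Slc1a2, Slc4a4, Slc6a11, Slc6a9 and Sparcl1) and 1 rose (Cxcl14, lost in 13 other settings, with adjusted p between 0.0505 and 0.241), against 14% and 17.2% of all genes. In Foxj1-Olig2-tdT at 1 dpi 2 fell and none rose (against 2.16% and 5.93%). In Foxj1-tdT at 1 dpi 5 fell and 1, Acsbg1, rose (against 12% and 15.4%). At 5 dpi in Foxj1-tdT 4 fell and 2, Acsbg1 and Ntsr2, rose (against 9.21% and 13.8%). Both rises of Acsbg1 were called in every other setting, and that of Ntsr2 was lost in 3. The median log2 change of the 24 genes was -0.57 and -1.65 in Foxj1-Olig2-tdT and -0.91 and -0.29 in Foxj1-tdT, at 1 and 5 dpi. Over the whole list, 58 genes were tested. In Foxj1-Olig2-tdT 4 fell and 1 rose at 1 dpi, and 20 fell and 5 rose at 5 dpi. In Foxj1-tdT 22 fell and 3 rose at 1 dpi, and 10 fell and 7 rose at 5 dpi. At 5 dpi in Foxj1-Olig2-tdT, 12 ependymal markers made up 0.0645% to 0.0878% of the summed values, against 1.07% to 1.10% without injury, and 11 astrocyte markers 0.218% to 0.247%, against 0.321% to 0.438%, with none of either list at 0 in every library of a group. There 11 of 12 OPC markers in the table made up 0.0886% to 0.0994%, against 0.0235% to 0.0253% without injury, where Cspg4 and Gpr17 were at 0, and 9 of 12 neuron markers 0.0688% to 0.0823%, against 0.0198% to 0.0203%, where Syt1 and Elavl4 were at 0. The OPC list holds Olig2, a gene in that genotype's name, and Ptprz1, whose peaks were higher in ACNT than in OPC cells. Their parts in the OPC share were not counted apart. At 5 dpi in Foxj1-tdT the OPC markers made up 0.0251% to 0.0415%, with Sox10 and Gpr17 at 0, against 0.000936% to 0.00121% without injury, with 5 at 0 (Pdgfra, Cspg4, Sox10, Gpr17 and Lhfpl3). The neuron markers there made up 0.0264% to 0.0448%, with none at 0, against 0.0118% to 0.0122%, with Syt1 and Tubb3 at 0. The part of these 4 lists in the changes was not tested.

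Slc6a11 had 1.8 and 0 normalised counts at 5 dpi in Foxj1-Olig2-tdT, against 203.2 and 313.2 without injury, and 54.3 and 37.7 at 5 dpi in Foxj1-tdT, against 320.5 and 317.2. The groups did not overlap in either genotype. Slc6a11 was named for its fall at 5 dpi in Foxj1-Olig2-tdT, so the call and the lack of overlap there follow from that choice. The log2 change was -7.24 ± 0.70 in Foxj1-Olig2-tdT (limma adjusted p = 4.73e-05) and -2.79 ± 0.70 in Foxj1-tdT (adjusted p = 0.0178). The Foxj1-tdT call was lost with the near-identical uninjured pair as 1 library (adjusted p = 0.121), without either uninjured library (0.118 and 0.121) and without the second library of 5 dpi (0.0824).

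Sparcl1, Slc1a2, Cbs, Hepacam and Rora are list genes singled out after their values were seen. Sparcl1, which encodes hevin, a secreted protein of synapse formation, was abundant. In Foxj1-Olig2-tdT it had 20654.4 and 23922.0 normalised counts without injury, 10899.8 and 6676.8 at 1 dpi, then 2992.5 and 1494.5 at 5 dpi. In Foxj1-tdT it had 16778.9 and 16125.0 without injury, 3604.6 and 2130.1 at 1 dpi, then 11767.4 and 17746.1 at 5 dpi. At 5 dpi it was thus low in both Foxj1-Olig2-tdT libraries, while the Foxj1-tdT libraries overlapped their uninjured ones. The log2 change at 5 dpi was -3.39 ± 0.37 in Foxj1-Olig2-tdT (limma adjusted p = 9.25e-05) and -0.19 ± 0.37 in Foxj1-tdT (adjusted p = 0.76), and the difference between genotypes was -3.21 ± 0.52 (adjusted p = 0.00742). At 1 dpi it fell in Foxj1-tdT by 2.57 on the log2 scale (adjusted p = 0.00082), and the call in Foxj1-Olig2-tdT (adjusted p = 0.0469) was lost in 10 of 18 other settings, with adjusted p between 0.0548 and 0.229. These were quantile normalization, the uninjured pair as 1 library and the removal of either 1 dpi library, of any 1 of the 4 uninjured libraries or of either Foxj1-tdT library of 5 dpi.

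Slc1a2 had 149.4 and 92.8 at 5 dpi in Foxj1-Olig2-tdT, against 514.6 and 766.0 without injury (limma adjusted p = 0.00272), and 355.6 and 439.0 at 5 dpi in Foxj1-tdT, against 268.6 and 237.6 (adjusted p = 0.343). The difference between genotypes was -3.05 ± 0.64 on the log2 scale (adjusted p = 0.0209) and was lost with the uninjured pair as 1 library (adjusted p = 0.0959) and without the second library of 5 dpi of either genotype or either uninjured Foxj1-tdT library (between 0.0678 and 0.101). Cbs, an enzyme of hydrogen sulfide and cysteine synthesis, fell at 5 dpi in Foxj1-Olig2-tdT by 3.08 on the log2 scale and Hepacam, a partner of the Mlc1 protein, by 1.88 (adjusted p = 0.000592 and 0.00288). Both had lower values in each injured library than in each uninjured one of that genotype. In Foxj1-tdT, Cbs and Hepacam were also called lower at 1 and 5 dpi. The Cbs calls there were lost in 4 and 9 other settings, and the Hepacam calls in 0 and 12.

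Among regulators, Nfia moved in opposite directions at the 2 times in Foxj1-tdT. It had 5927 and 6247 without injury, 2821 and 2973 at 1 dpi, then 9938 and 14175.5 at 5 dpi, and none of these groups overlapped. NFIA is a factor of glial fate. The log2 change was -1.07 ± 0.16 at 1 dpi (limma adjusted p = 0.00103) and 0.96 ± 0.16 at 5 dpi (adjusted p = 0.00239). In Foxj1-Olig2-tdT it fell at 1 dpi by 0.70 (adjusted p = 0.0257). That call was lost without either library of 1 dpi, the first uninjured one or either uninjured Foxj1-tdT library, with adjusted p between 0.0510 and 0.106. At 5 dpi the change was 0.23 ± 0.16 (adjusted p = 0.3).

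Gli3 was near 0 without injury and rose in all 4 contrasts. It had 0 and 0 normalised counts in uninjured Foxj1-Olig2-tdT libraries, 20.8 and 101.3 at 1 dpi, then 31.8 and 69.6 at 5 dpi, and 1.0 and 0 in uninjured Foxj1-tdT libraries, 64.2 and 91.4 at 1 dpi, then 169.3 and 57.6 at 5 dpi. No injured library overlapped the uninjured ones. The limma adjusted p was 0.00896 and 0.00221 in Foxj1-Olig2-tdT, the first lost without the second library of 1 dpi (0.0558), and 0.00254 and 0.00234 in Foxj1-tdT.

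Id3, a BMP target that restrains differentiation factors, had 55.9 and 81.9 in uninjured Foxj1-Olig2-tdT libraries, 34.9 and 69.0 at 1 dpi, then 1721 and 935.1 at 5 dpi. In Foxj1-tdT both uninjured libraries listed it at 0, and it had 63.5 and 14.6 at 1 dpi, then 891.1 and 2216 at 5 dpi. It was thus highest at 5 dpi in both genotypes. At 1 dpi the limma adjusted p was 0.784 in Foxj1-Olig2-tdT and 0.00163 in Foxj1-tdT; the difference between genotypes had an adjusted p of 0.0379, lost in 11 other settings. At 5 dpi the adjusted p was 0.00307 in Foxj1-Olig2-tdT and 6.65e-05 in Foxj1-tdT. Rora, a nuclear receptor of the ROR family, fell at 5 dpi in Foxj1-tdT by 2.17 on the log2 scale (adjusted p = 0.00331), with 201.1 and 254.6 at 5 dpi against 992.8 and 1048.5 without injury. Rora was also called lower at 1 dpi in Foxj1-tdT and at 5 dpi in Foxj1-Olig2-tdT, lost in 4 and 2 other settings. Acvr1, a BMP receptor, had 2124 and 1509 at 5 dpi in Foxj1-tdT, against 329.8 and 307.9, a log2 change of 2.49 ± 0.47 (adjusted p = 0.00484). Acvr1 was also called higher at 5 dpi in Foxj1-Olig2-tdT, lost in 3 other settings.

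Over the whole lists, of 33 tested astrocyte transcription factors 2, 6, 2 and 6 rose and 2, 6, 9 and 2 fell in Foxj1-Olig2-tdT at 1 and 5 dpi and Foxj1-tdT at 1 and 5 dpi, in that order. Of 34 tested Notch and BMP genes 3, 10, 3 and 10 rose and 2, 3, 5 and 2 fell. Of 29 tested patterning genes 0, 3, 1 and 2 rose and 0, 6, 7 and 3 fell. The shares of all genes higher and lower in these contrasts are those given with Gfap and with the membrane list.

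Among the largest log2 changes at 5 dpi were those of 3 matrix genes with members of low level. Thbs2, a matricellular protein with a member of 10.9 CPM at its promoter, had 1920 and 2676 at 5 dpi in Foxj1-Olig2-tdT, against 3.2 and 2.0 without injury, and 7042 and 4194 at 5 dpi in Foxj1-tdT, against 80.6 and 90.6 (limma adjusted p = 1.08e-05 and 0.000404). Col1a1, a fibrillar collagen that also had an ependymal-class peak, had 2468 and 2583 at 5 dpi in Foxj1-Olig2-tdT, against 2.8 and 6.2, and 841.9 and 673.0 at 5 dpi in Foxj1-tdT, against 25.1 and 3.1 (adjusted p = 6.54e-05 and 0.00134). Fbln2, an extracellular matrix protein, had 101.6 and 148.9 at 5 dpi in Foxj1-Olig2-tdT, against 0 and 1.4, and 2100 and 1774 at 5 dpi in Foxj1-tdT, against 0 and 3.8. The 6 fibroblast markers in the table, Col1a1 among them, made up 0.0690% to 0.0771% of the summed values at 5 dpi in Foxj1-Olig2-tdT, against 0.0027% to 0.00754% without injury, and 0.0375% to 0.0518% at 5 dpi in Foxj1-tdT, against 0.00385% to 0.00419%, with none at 0 at 5 dpi; their part in these rises was not tested.

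Ppargc1a, the coactivator of mitochondrial genes, fell in all 4 contrasts, though the call at 1 dpi in Foxj1-Olig2-tdT (limma adjusted p = 0.015) was lost without either library of that time (0.0689 and 0.0511). It had 115.7 and 231.0 at 5 dpi in Foxj1-Olig2-tdT, against 967.5 and 1214 without injury, and 263.0 and 221.8 at 5 dpi in Foxj1-tdT, against 1104 and 1019. The log2 change was -2.72 ± 0.38 and -2.13 ± 0.38 (limma adjusted p = 0.000451 and 0.00339). Lsamp, an adhesion molecule with 4 members, fell at 1 dpi in Foxj1-tdT to 62.4 and 51.1, against 627.9 and 569.4 without injury (adjusted p = 0.00409). Trpm3, the gene with the most members, was listed at 0 in all uninjured libraries and had 7.6 and 16.9 at 5 dpi in Foxj1-Olig2-tdT and 33.6 and 34.4 at 5 dpi in Foxj1-tdT. The adjusted p was 0.0458 and 0.014, and both calls were lost without any 1 library of their own contrast, with adjusted p between 0.0536 and 0.204.

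The injury response differed between genotypes for some genes near members. At 1 dpi the difference passed for 26 of 672 (3.87%), 11 higher and 15 lower in Foxj1-Olig2-tdT than in Foxj1-tdT, against 2.77% of all genes (0.923% higher and 1.85% lower). The split turned with the setting: 12 were higher and 8 lower with a pseudocount of 8, and 9 and 7 with the replicate block, so that 60% and 56.3% of the calls were higher, against 42.3%. At 5 dpi it passed for 72 (10.7%), 23 higher and 49 lower, against 7.28% (2.64% higher and 4.64% lower). With the near-identical uninjured pair as 1 library the counts were 5 and 16. Without either uninjured Foxj1-tdT library they were 6 at 1 dpi and 17 and 18 at 5 dpi. At 1 dpi, leaving out a Foxj1-Olig2-tdT library of 1 or 5 dpi gave 15 or 16, and leaving out its first or second uninjured library 40 and 46. At 5 dpi it was 43 and 33 without the first or the second Foxj1-Olig2-tdT library of that time, and 37 without the second Foxj1-tdT one. The difference for Sparcl1 at 5 dpi was called in every other setting tried.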

How the data were processed

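The single-cell chromatin file holds raw counts of cut sites per peak and cell, deposited by the authors after their own filtering of cells and peaks, with a class name for each cell. The deposited table per cell also gives the percent of fragments in peaks and a ratio of enrichment at gene starts, made by the authors. The bulk RNA table holds normalised counts, treated as a signal of unknown depth, as deposited by the authors; their scaling is not given in the sources used here. The submitters' processing notes name Cell Ranger ATAC, Cell Ranger, Bowtie2, SAMtools, deepTools and mm10, without roles or versions. Bulk ATAC data of 12 further libraries are not used here.

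Cut sites were summed per pool and scaled to CPM over all 96670 peaks (Python 3.11.15, numpy 2.4.6, pandas 2.3.3, scipy 1.17.1; figures with matplotlib 3.10.9). Peak positions are as in the file. Genes, promoters and miRNAs are from RefSeq on GRCm38.p6, the same assembly as mm10; 4408 of 21900 protein-coding genes had no start in the promoter table, and strand was used for promoters only. With 1 chromatin sample no test was made. Bulk values were tested as log2(value + 1) in 1 limma fit (3.58.1, R 4.3.3) over 6 groups of 2, with the difference between genotypes as an interaction and Benjamini-Hochberg adjustment over 15811 genes at a threshold of 0.05; fold changes are on that scale, which understates the change of low genes. The script was tested on simulated data. Alternatives were the scaling, filter, pseudocount, replicate block, single libraries and the member and assignment rules. Named genes were those with the most members (10), at the 10 highest members, with the 5 largest changes each way per contrast among called genes without overlap and with a mean of at least 50, and up to 6 per list. For a gene named by its change, the call and the lack of overlap in that contrast follow from the choice. With 2 libraries per group a lack of overlap is easily met, and its share over all genes was not counted. The members and lists were chosen with earlier results of these data known.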

Additional observations from a re-analysis of the deposited data

Results flagged for a closer look

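The injury response, taken as the log2 difference of Foxj1-Olig2-tdT minus Foxj1-tdT, differed between genotypes for 12 of the genes near astrocyte-class peaks that the naming rule chose, by the interaction term of the limma fit (Benjamini-Hochberg over all genes). Over all genes tested it passed for 2.77% at 1 dpi and 7.28% at 5 dpi. The naming rule took, among others, the largest called changes within 1 genotype. The count of 12 follows in part from that choice and is no measure of genes near members. The difference was 10.54 for Slc13a3, a dicarboxylate transporter, at 1 dpi (adjusted p = 0.00697) and 5.58 at 5 dpi (adjusted p = 0.0356). Slc13a3 had 20.1 and 50.9 normalised counts at 1 dpi in Foxj1-Olig2-tdT, against 0 and 1.6 without injury, and 0.6 and 0 at 1 dpi in Foxj1-tdT, against 82.1 and 101.0. The genotypes thus moved in opposite directions at 1 dpi, and that difference was called in every other setting tried. The rise in Foxj1-Olig2-tdT by itself (limma adjusted p = 0.0225) was lost in 7 other settings and kept in 11. The fall in Foxj1-tdT was kept in all 18.

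For 4931429L15Rik the difference was -5.32 at 1 dpi (adjusted p = 0.0427) and -8.33 at 5 dpi (adjusted p = 0.00442), the second called in every other setting. It was listed at 0 in both libraries of 5 dpi in Foxj1-Olig2-tdT, against 79.1 and 67.1 without injury, and had 2.6 and 4.3 at 5 dpi in Foxj1-tdT, against 0 and 0. For Capn9 the difference was 7.93 at 5 dpi (adjusted p = 0.0106). Capn9 had 2.1 and 16.2 at 5 dpi in Foxj1-Olig2-tdT, against 0 and 0, and 0 and 0 at 5 dpi in Foxj1-tdT, against 36.7 and 28.6.

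For Id3 the difference was -5.44 at 1 dpi and -6.25 at 5 dpi (adjusted p = 0.0379 and 0.0121), for Elovl2 -8.12 and -6.68 (0.0415 and 0.0487) and for Tmem164 -5.66 and -5.68 (0.0491 and 0.0283). These 3 genes were listed at 0 in both uninjured Foxj1-tdT libraries. At 1 dpi it was 7.13 for Alpl (adjusted p = 0.0478), 5.77 for Tcerg1l (0.0376), -7.90 for Fbln2 (0.0142) and 8.06 for Ptgds (0.0171). At 5 dpi it was 4.88 for L3mbtl4 (0.0457) and -4.45 for Slc6a11 (0.0262). Each of these differences, other than that of Slc13a3 at 1 dpi and that of 4931429L15Rik at 5 dpi, was lost in other settings. The fewest losses were 2, with 16 settings keeping the call, for Fbln2. The most were 13, with 5 keeping it, for Tmem164 at 1 dpi. Alpl was lost in 12, Elovl2 at each time and Id3 at 1 dpi in 11, and Tcerg1l in 10. Where a group is listed at 0 the size is a fitted value that depends on the pseudocount and is no bound.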

How the results depend on the processing

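The rule gave 1236 peaks, and 614 with at least 20 CPM in ACNT, 790 at 6 times each other sum and 591 against the upper Poisson bound of each other sum. With each cell counted at most once per peak it gave 1357, of which 979 were members (79.2% of the 1236). With the mean over cells of each cell's own CPM it gave 1351, of which 997 were members (80.7%). Held against each deposited class on its own, it gave 992, all of them members (80.3%). For the location shares of astrocyte-class peaks, the promoter share differed by -11.1 points from that of all peaks and by -42.4 points from that of peaks with at least 10 CPM in ACNT. With both uninjured Foxj1-tdT libraries entered as 1, 41 genes near members were called in Foxj1-Olig2-tdT at 1 dpi, 87 and 74 in Foxj1-tdT at 1 and 5 dpi, and 5 and 16 for the difference between genotypes. Leaving out single libraries gave 33 to 83 and 152 to 250 in Foxj1-Olig2-tdT at 1 and 5 dpi, 87 to 212 and 72 to 208 in Foxj1-tdT, and 6 to 46 and 17 to 91 for the difference. With only genes of 2 or more members, of which fewer were tested, 12, 45, 39, 40, 8 and 19 were called, in the same order, and with only genes within 2 kb of a member 42 in Foxj1-Olig2-tdT at 1 dpi and 16 for the difference at 1 dpi. The cause was not tested. Same-numbered libraries shared only a number (correlations between -0.0296 and 0.0222 over 15 pairs of groups); with the replicate block the counts were 60, 239, 174, 179, 16 and 63. The share of calls that were higher was 42.3% for the difference at 1 dpi, 60% with a pseudocount of 8 and 56.3% with the block; with the pair as 1 library it was 73.0% against 61.6% in Foxj1-tdT at 5 dpi and 6.25% against 31.9% for the difference at 5 dpi. Quantile normalization moved the median of all genes at 5 dpi to -0.03 in Foxj1-Olig2-tdT, against 0.12, and to -0.07 in Foxj1-tdT, against 0.04. With genes near an ependymal-class peak left out, a setting chosen after seeing the data, the counts were 47, 188, 138, 143, 23 and 50. Of 157 calls of named or listed genes, 82 held in every setting; 467 of 2807 repeats lost a call and 0 reversed. A peak at the threshold rests on 34 cut sites, and the depth of the bulk libraries is unknown.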
